A study of Mus musculus with 4 samples.

Results

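Genes of the BCL2 family, 10 in all, were followed in HFSCs, cells of mouse hair follicles, after short and long culture. They were taken by gene symbol from the 24346 symbols of each library, and each of the 10 was listed: the pro-survival genes Bcl2, Bcl2l1 and Mcl1, the effector genes Bax and Bak1, the BH3-only genes Bid, Bcl2l11, Bbc3 and Pmaip1, and Bcl2l15. Of these, 9 were taken for the place of their products in the family, while Bcl2l15 was chosen by its FPKM difference between these same libraries, so its values are described without a test. The HFSCs were sorted as CD49f+CD34+ cells from dorsal skin epithelium of 4-week-old C3H/HeN mice and passaged weekly in M-CnT, a serum-free medium. 10p-HFSCs were cells after 10 passages (2 libraries) and 48p-HFSCs cells after 48 passages (2 libraries). No treatment is named for either group. The methods describe serial passaging of the sorted cells, without saying how many starting cultures the 4 libraries stand for. Neither the labels nor the methods say whether the replicates of a group were separate cultures, so p-values measure only the spread between these libraries, which may be technical.

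BCL2 family proteins decide whether the outer membrane of mitochondria stays intact. Pro-survival members hold the effectors BAX and BAK in check, BH3-only members carry stress signals by binding pro-survival members or the effectors, and effectors set free by them open the membrane, release cytochrome c and start the caspases. In skin, the family acts in the hair cycle, in which the lower follicle regresses by apoptosis, and pro-survival members help to keep keratinocytes and follicle stem cells alive.

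Values are FPKM, fragments per length of exon relative to all mapped fragments of a library, so that levels of different genes can be compared per length. Read totals are unknown. Ratios of low FPKM values between libraries would put the other 3 at 46.7% to 82.9% of the depth of replicate 1 of 10p-HFSCs. This holds only if FPKM was scaled by mapped fragments alone, which was not tested, and otherwise the ratios reflect the scaling. Replicate 2 of 48p-HFSCs, the lowest by these ratios, stood apart with a summed FPKM of 1414953, against 581516 to 719012 in the other 3. Of 8 markers of follicle keratinocytes, 6 reached an FPKM of 1 in some library, and their sum was 3502 and 2880 in 10p-HFSCs, compared with 12722 and 7718 in 48p-HFSCs. Most of this sum was Krt5 and Krt14, which were not called, while Sox9 was lower in 48p-HFSCs (44.9 ± 0.99 against 14.3 ± 8.41, SD, n = 2, limma adjusted p = 0.039) and Krt15 overlapped, at 425 and 18.8 in 48p-HFSCs. Cd34, the marker of the sort, was at 0.0925 to 0.234 in all 4 libraries, and Lhx2 was at 0.0241 or less, so these markers go against the label, which is kept here as a name. The 11018 genes that reached an FPKM of 1 in 2 or more libraries were compared by limma on the log2(FPKM + 1) scale, on which the change of a low gene is understated. A gene was called higher or lower in 48p-HFSCs at a Benjamini-Hochberg adjusted p under 0.05, over all genes tested, together with a difference of at least 1 on that scale. An exact permutation test of 2 libraries against 2 cannot give a two-sided p under 0.333, so calls rest on limma's sharing of variance between genes.

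Bcl2l15, also known as Bfk, encodes a small family member with BH2 and BH3 regions and weak pro-apoptotic activity, described from epithelia such as that of the gut. It was almost silent in 10p-HFSCs and was the member with the second highest level in both 48p-HFSC libraries. Its FPKM was 0.0913 (replicate 1) and 0.127 (replicate 2) for 10p-HFSCs, compared with 148 (replicate 1) and 263 (replicate 2) for 48p-HFSCs. The groups were far apart, and both 48p-HFSC libraries were high. In RNA of bulk cultures, a change in the number of cells of a kind and a change in RNA per cell cannot be told apart. The 10p-HFSC values were low. Among genes of like transcript length listed above 0, they lay a little above the lowest 10%, which were at or under 0.0578 and 0.0843. The size of the difference, 7.48 with 1 added to each FPKM and 9.89 with 0.1 added, therefore depended on the number added. In rank, Bcl2l15 moved from 12600 and 12395 among the 24346 symbols in 10p-HFSCs to 556 and 516 in 48p-HFSCs. It made up 21.4% and 23.2% of the summed FPKM of the 10 members in 48p-HFSCs, compared with 0.0196% and 0.0216% in 10p-HFSCs. Of 7 markers of gut epithelium, none reached an FPKM of 1 in any library, 3 were listed at 0 in all 4, and their sum ranged from 0.274 to 0.370.

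**Figure D1:**
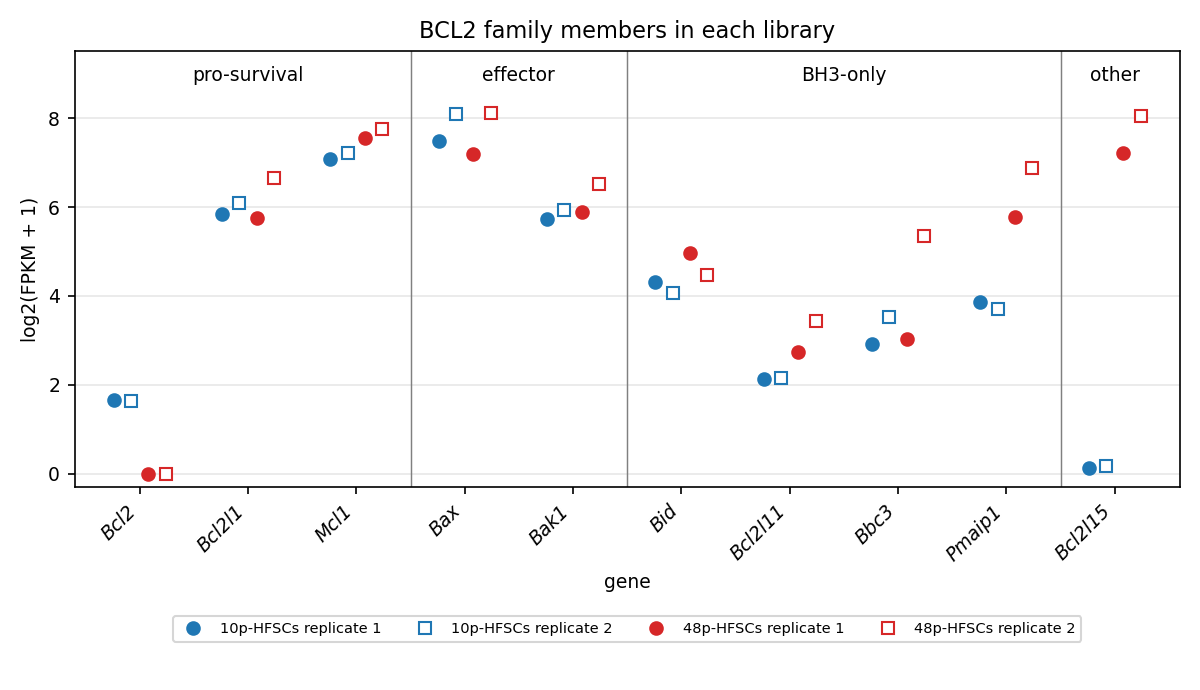
FPKM of the 10 members on the log2(FPKM + 1) scale in each of the 4 libraries, with 10p-HFSCs in blue, 48p-HFSCs in red, circles for replicate 1 and squares for replicate 2. Bcl2 is at 0 in both 48p-HFSC libraries, Bcl2l15 is near 0 in both 10p-HFSC libraries, and Pmaip1 is higher in each 48p-HFSC library (53.9 and 116 FPKM) than in 10p-HFSCs.

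Bcl2l15 and Bcl2 are the members listed near or at 0 in one group, in opposite directions, and the sequences before their start sites are shown because they differ in base composition as well. Both come from RefSeq on build GRCm38.p6, the assembly called mm10 by the study, and stop before the first base of these 2 genes in RefSeq and GENCODE M21. Capitals mark each CG, the dinucleotide that carries most DNA methylation in mammals. The sequence before Bcl2l15 is chr3:103832446-103832600 on the plus strand and that before Bcl2 is chr1:106714291-106714540 on the minus strand, each written 5′ to 3′.
Bcl2l15: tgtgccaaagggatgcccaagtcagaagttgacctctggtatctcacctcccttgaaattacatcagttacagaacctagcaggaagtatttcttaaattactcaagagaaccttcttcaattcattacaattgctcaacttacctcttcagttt
Bcl2: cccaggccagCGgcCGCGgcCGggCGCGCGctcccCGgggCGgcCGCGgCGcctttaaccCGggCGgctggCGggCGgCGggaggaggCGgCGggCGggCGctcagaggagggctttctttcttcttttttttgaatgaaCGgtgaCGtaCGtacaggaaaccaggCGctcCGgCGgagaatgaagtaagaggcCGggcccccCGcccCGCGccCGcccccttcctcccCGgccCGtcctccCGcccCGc

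The 155 bases before Bcl2l15 held no CG and had a GC content of 39.4%, whereas the 250 bases before Bcl2 held 36 CGs and had a GC content of 74.8%. Over RefSeq windows from 250 bases before to 50 after the start, a CG was absent from the Bcl2l15 window, as from 5.43% of the 32851 windows of all genes, whose median was 7 CGs (both strands, since CG reads the same on either). The Bcl2 window held 44, a number reached by 2.25% of windows. Windows were matched for 9 members, 14 windows in all, and Pmaip1 was not analysed here. Apart from Bcl2l15, 1 window of Bcl2l1 held 1 CG, and the other 12 held from 11 (Bak1) to 44 (Bcl2). A count of CGs is a description of these windows, and DNA methylation was not measured.

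Bcl2l15 lies on chromosome 3 of mm10 from 103832601 to 103854618 on the plus strand, between Ap4b1 and Ptpn22. Ptpn22, the next gene along the same strand, which encodes a tyrosine phosphatase known from lymphocytes, starts 5176 bases after the end of Bcl2l15. In 10p-HFSCs it was listed at 0 in both replicates, and in 48p-HFSCs its FPKM was 8.64 and 4.85. It passed the filter through the 48p-HFSC libraries alone and so had to differ, which leaves its call (limma adjusted p = 0.0030) without weight, and the call was lost without replicate 1 or 2 of 10p-HFSCs (limma adjusted p = 0.087 and 0.084). Of 5 leukocyte markers, Cd3e and Tyrobp were listed at 0 in all 4 libraries and Ptprc was at 0.0711 or less. Cd68 was at 7.30 and 6.81 in 10p-HFSCs, against 53.2 and 78.7 in 48p-HFSCs. Csf1r was at 1.28 and 1.13 in 10p-HFSCs, against 3.39 and 1.62 in 48p-HFSCs, and was not called. The sum of the 5 markers, most of it Cd68, was 8.60 and 7.96 in 10p-HFSCs, compared with 56.7 and 80.4 in 48p-HFSCs. Of the 5, 2 reached an FPKM of 1 in some library, and the part of these markers in the result was not tested.
Ap4b1, the gene before Bcl2l15, which encodes a subunit of an adaptor complex of vesicle transport, was at 6.65 and 5.42 in 10p-HFSCs, against 9.22 and 6.14 in 48p-HFSCs (limma adjusted p = 0.53). Dclre1b, Rsbn1 and Phtf1os were not called either, with limma adjusted p-values of 0.84, 0.35 and 0.44, and Gm15471 was at 0.274 or less. Rsbn1 was called lower without replicate 1 of 48p-HFSCs (difference -1.20, limma adjusted p = 0.031), and its difference was -0.018 without replicate 2. GENCODE M21 also has a gene model of the same strand, Gm43064, that overlaps Ap4b1 and Bcl2l15 and was not analysed here, so that reads could be shared between the models. Of 18 genes next to the other 9 members, 11 were tested and 1 was called, Bcl2l13 beside Bid, against 19.9% of all genes tested.

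**Figure D2:**
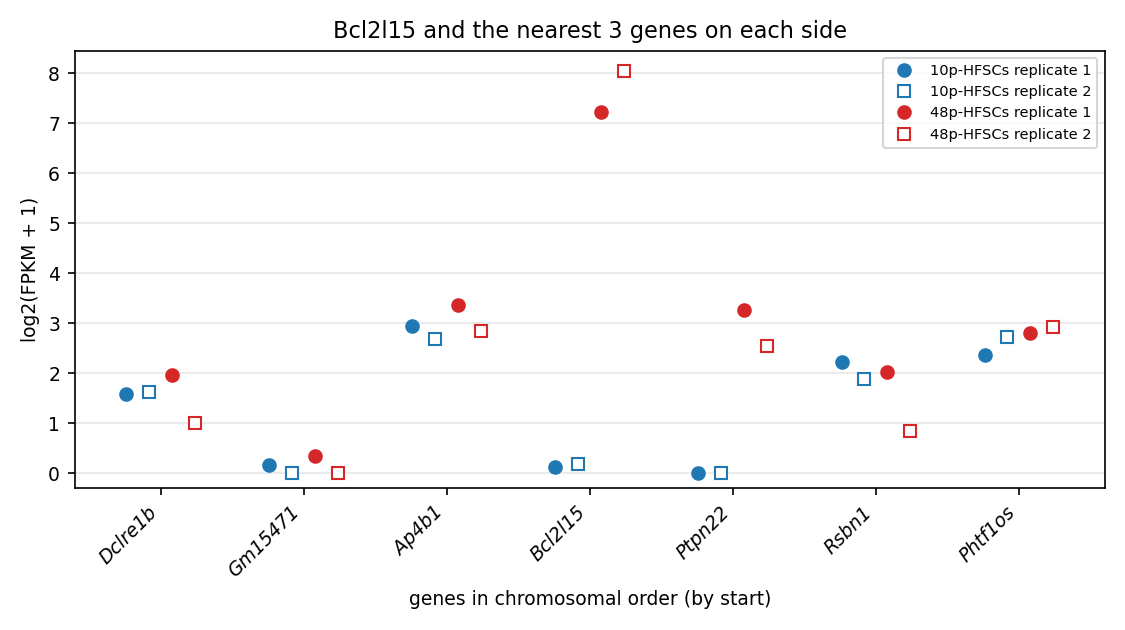
FPKM on the log2(FPKM + 1) scale of Bcl2l15 and the nearest 3 genes on each side in chromosomal order, in the 4 libraries (10p-HFSCs in blue, 48p-HFSCs in red). Bcl2l15 and Ptpn22 are at or near 0 in 10p-HFSCs and higher in both 48p-HFSC libraries, while 4 of the other 5 genes overlap between groups and Phtf1os, at 4.13 to 6.58, does not.

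The genes whose values over the 4 libraries lay nearest to those of Bcl2l15, by Euclidean distance on the log2(FPKM + 1) scale among all 24346 symbols, were Rhox2h (distance 0.605), Serpinb6c (0.998), Tmem176a (1.05), Tslp (1.09) and Tmem176b (1.26). Tslp, which encodes an epithelial cytokine, was at an FPKM of 0.157 and 0.439 in 10p-HFSCs, against 79.9 and 180.4 in 48p-HFSCs. Rhox2h belongs to a cluster of near-identical copies, so its reads could have been split. These genes share with Bcl2l15 the libraries and their depth.

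Among the other 9 members, all of which passed the filter, 1 was called higher and 1 lower in 48p-HFSCs: Pmaip1 rose, and Bcl2, which passed the filter through the 10p-HFSC libraries alone and so had to differ, was listed at 0 in 48p-HFSCs. Over all genes tested, 19.9% were called, 10.8% higher and 9.15% lower. The median difference of the 9 members was 0.52 on the log2(FPKM + 1) scale, against -0.03 over all genes tested. The 48p-HFSC pair was wholly higher than the 10p-HFSC pair in 4 of the 9 (31.7% of all genes tested), wholly lower in 1 (34.3%), and overlapped with it in 4, while 65.9% of all genes tested had no overlap. An unadjusted p under 0.05 was found for 3 of the 9 and for 37.4% of all genes tested. Both calls were lost when either 10p-HFSC library was left out, when only 35 or 36 genes were called higher and 140 or 146 lower among all genes, and both stood when either 48p-HFSC library was left out. Without replicate 1 of 48p-HFSCs, 4 of the 9 members were called, Bcl2l11 and Bbc3 being the other two, when 34.6% of all genes were called. Rescaling each library to the same sum (TPM) moved the median difference of all genes from -0.03 to -0.56, and 7 of the 9 members lay above the median of all genes on either scale. On TPM 13.0% of all genes were called, 623 higher and 812 lower, compared with 1189 higher and 1008 lower on FPKM, and Pmaip1 and Bcl2 were called there too.

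**Figure D3:**
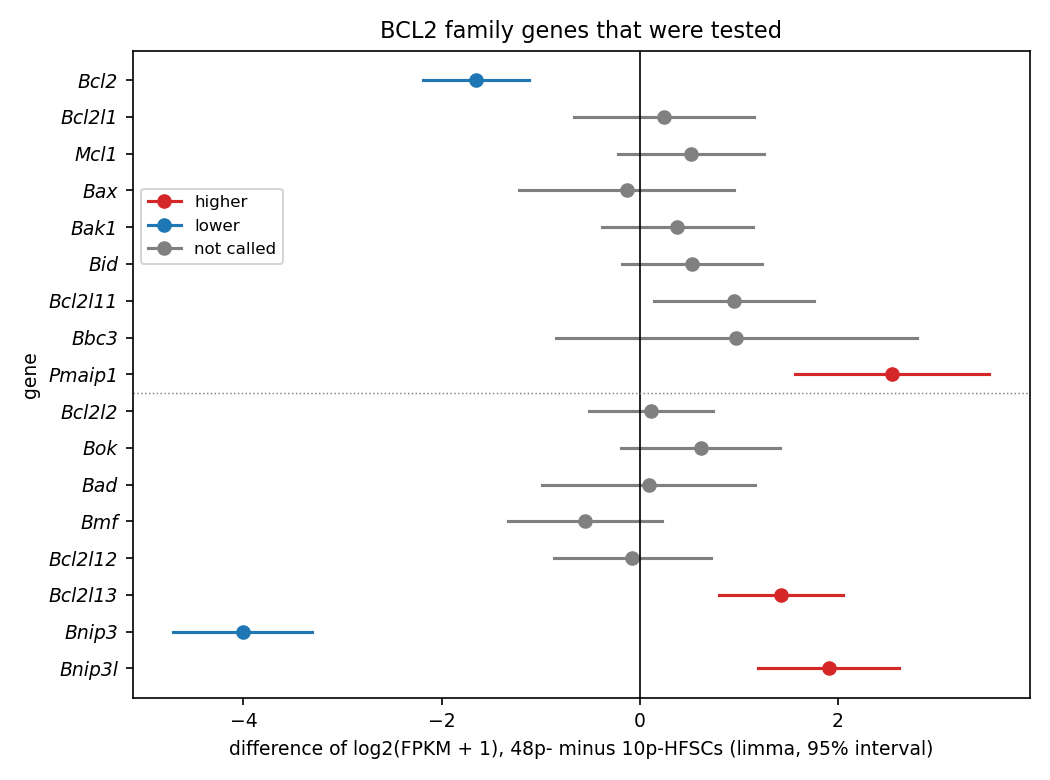
Difference of log2(FPKM + 1), 48p- minus 10p-HFSCs, for the 9 tested members (above the dotted line) and the 8 other family genes tested, with limma's 95% interval, 2 libraries a group, red for genes called higher, blue for genes called lower and grey for genes not called. Bnip3 (-4.01) and Bcl2 (-1.65) lie to the left, and Pmaip1 (2.55), Bnip3l (1.91) and Bcl2l13 (1.43) to the right, with intervals clear of 0. Bcl2 passed the filter through the 10p-HFSC libraries alone and so had to differ, and its interval carries no weight.

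Of the pro-survival members, Bcl2, the gene that gave the family its name, was listed at an FPKM of 2.18 and 2.12 in 10p-HFSCs and at 0 in both 48p-HFSC libraries. Its groups did not overlap, and its difference on the log2(FPKM + 1) scale was -1.65 (standard error 0.22, limma adjusted p = 0.0054), a value that depends on the 1 added, with no fold possible against 0. Since it passed the filter through the 10p-HFSC libraries alone, this p carries no weight beyond the values. Bcl2, on chromosome 1 of mm10 from 106538178 to 106714274, was the second lowest member in 10p-HFSCs. Among genes with a transcript of like length listed above 0 in 48p-HFSCs, the lowest 10% lay at or under 0.0355 and 0.0982, far under the level of Bcl2 in 10p-HFSCs. The adjusted p without replicate 1 or 2 of 10p-HFSCs was 0.060 or 0.055 (limma). Of 6 fibroblast markers, Col1a2 alone reached an FPKM of 1, at 67.6 and 59.3 in 10p-HFSCs and listed at 0 in both 48p-HFSC libraries, Col1a1 was at 0.903 or less, and Lum was listed at 0 in all 4. The sum of the 6 was 68.9 and 60.2 in 10p-HFSCs, compared with 0.357 and 0.388 in 48p-HFSCs, and its part in the lower level of Bcl2, or of Bnip3 described later, was not tested.

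Mcl1, which encodes a short-lived pro-survival protein that keratinocytes depend on, was the most abundant pro-survival member in every library. Its FPKM was 134 and 147 in 10p-HFSCs, compared with 188 and 217 in 48p-HFSCs. Both 48p-HFSC libraries were above both 10p-HFSC libraries, but the difference of 0.52 on the log2(FPKM + 1) scale had an interval from -0.22 to 1.26 (limma adjusted p = 0.26), and it was -0.063 after rescaling to TPM. Bcl2l1, whose long product is BCL-XL and whose short product is pro-apoptotic, was at 56.1 and 66.9 in 10p-HFSCs, against 52.7 and 100.1 in 48p-HFSCs, which overlapped. Its difference was 0.24, with an interval from -0.67 to 1.15 (limma adjusted p = 0.66), and -0.34 after rescaling to TPM. Values per gene do not tell its products apart.

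Neither effector was called. Bax was the most abundant member in both 10p-HFSC libraries, with an FPKM of 179 and 271, against 146 and 275 in 48p-HFSCs. The groups overlapped wholly, and the difference of -0.13 had an interval from -1.22 to 0.96 (limma adjusted p = 0.85). It lay above 0, at 0.17 and 0.32, without replicate 2 of 10p-HFSCs and without replicate 1 of 48p-HFSCs. Bak1 was at 52.1 and 59.8 in 10p-HFSCs, against 58.5 and 90.9 in 48p-HFSCs, a difference of 0.38 with an interval from -0.39 to 1.15 (limma adjusted p = 0.41), which was -0.20 after rescaling to TPM.

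Of the 4 BH3-only members, Pmaip1, which encodes NOXA, a selective partner of MCL1 and a p53 target, was called. Its FPKM was 13.5 and 12.0 in 10p-HFSCs, compared with 53.9 and 116 in 48p-HFSCs, so that both 48p-HFSC libraries lay far above both 10p-HFSC libraries while differing from each other by more than the 10p-HFSC pair. The means were 12.7 ± 1.05 (SD, n = 2) and 84.9 ± 43.8 (SD, n = 2), a ratio of 6.66, and the difference on the log2(FPKM + 1) scale was 2.55 (standard error 0.40, interval from 1.57 to 3.52, limma adjusted p = 0.010). It remained called without replicate 2 of 48p-HFSCs, at 2.00 (limma adjusted p = 0.015), and after rescaling to TPM, at 1.99 (limma adjusted p = 0.0094). Without replicate 1 or 2 of 10p-HFSCs the difference was 2.62 or 2.47, with limma adjusted p-values of 0.17 and 0.18.

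Bcl2l11, which encodes BIM, an activator that binds all pro-survival members, was at an FPKM of 3.37 and 3.45 in 10p-HFSCs, against 5.71 and 9.82 in 48p-HFSCs. Both 48p-HFSC libraries were higher, and the difference of 0.95 (standard error 0.33, interval from 0.14 to 1.76) had a limma adjusted p of 0.095. It was 1.29 without replicate 1 of 48p-HFSCs, where it was called (limma adjusted p = 0.024), and 0.61 without replicate 2. Bbc3, which encodes PUMA, a p53 target, was at 6.51 and 10.5 in 10p-HFSCs, against 7.22 and 39.6 in 48p-HFSCs. Replicate 2 of 48p-HFSCs alone was high, and the difference of 0.97 (standard error 0.74, limma adjusted p = 0.38) was -0.18 without that library and 2.12 without replicate 1, where Bbc3 was called (limma adjusted p = 0.027). Bid, which links death receptors to mitochondria once cut by caspase 8, was at 19.0 and 15.8 in 10p-HFSCs, against 30.4 and 21.2 in 48p-HFSCs. Its difference of 0.53 had an interval from -0.18 to 1.24 (limma adjusted p = 0.24), and was -0.027 after rescaling to TPM. Bid overlaps Bcl2l13 on the opposite strand, and the strand setting of the counting is not given in the sources used here, so reads of these neighbours could have been exchanged.

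Since the summed FPKM differed between libraries, members were also set against each other within each library, where no scaling of the library enters. The summed FPKM of the 4 BH3-only members, relative to that of the 3 pro-survival members, was 0.220 and 0.193 in 10p-HFSCs, compared with 0.404 and 0.589 in 48p-HFSCs. Much of this sum was Pmaip1, and the ratio of Pmaip1 to Mcl1 alone was 0.101 and 0.0817 in 10p-HFSCs, compared with 0.287 and 0.535 in 48p-HFSCs. Both ratios were higher in both 48p-HFSC libraries than in either 10p-HFSC library. The ratio of Bcl2l1 to Bax was 0.314 and 0.247 in 10p-HFSCs, compared with 0.361 and 0.363 in 48p-HFSCs. The ratio of Mcl1 to Bax was 0.749 and 0.543 in 10p-HFSCs, compared with 1.29 and 0.786 in 48p-HFSCs, a gap between groups smaller than the spread within either. The 3 pro-survival members relative to both effectors gave 0.833 and 0.654 in 10p-HFSCs, compared with 1.18 and 0.864 in 48p-HFSCs. Each of these 3 further ratios was also higher in both 48p-HFSC libraries than in either 10p-HFSC library. These ratios are descriptions, as the members were chosen with results known, and levels of RNA do not show levels of protein.

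**Figure D4:**
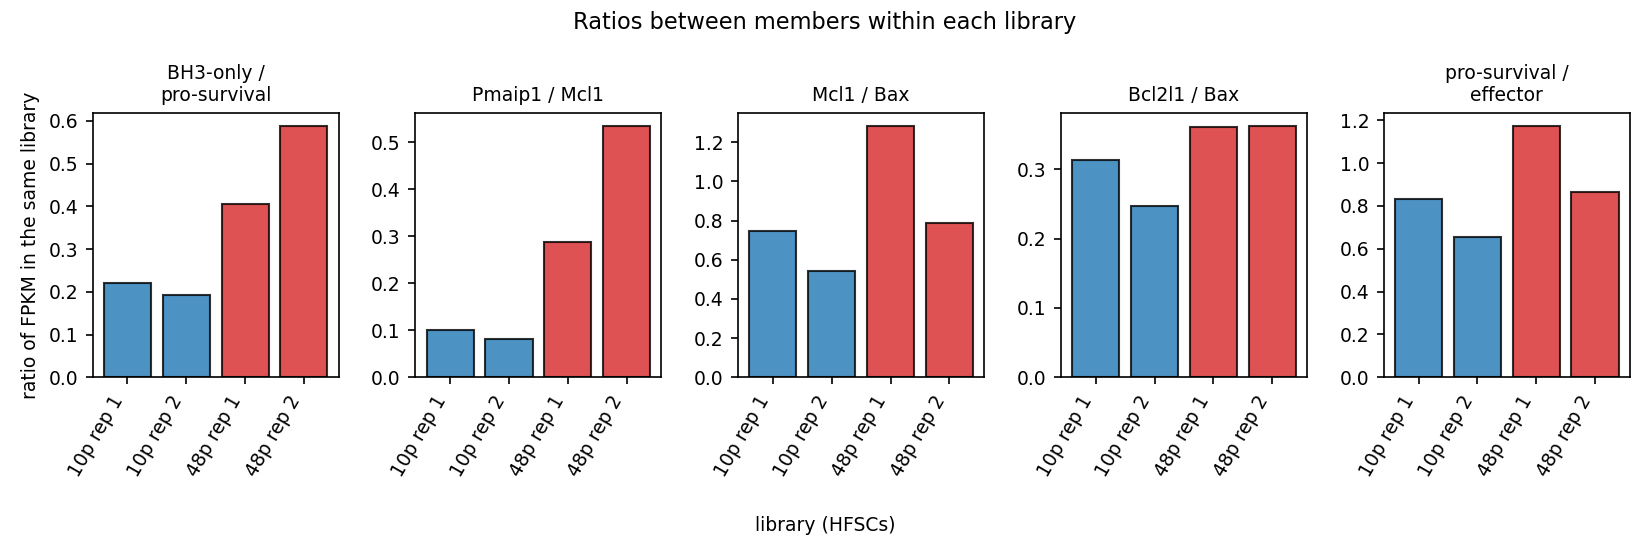
Ratios of FPKM between members within each library, 10p-HFSCs in blue and 48p-HFSCs in red, 1 bar a library and each axis starting at 0. BH3-only to pro-survival members reach 0.404 and 0.589 and Pmaip1 to Mcl1 0.287 and 0.535 in 48p-HFSCs, above both 10p-HFSC libraries. The 3 other ratios shown differ less between groups but are also higher in both 48p-HFSC libraries. The ratio of Bcl2l1 to Bak1, which overlapped between groups, is not shown.

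The rest of the family was taken as 16 further genes, of which 8 passed the filter, 2 were called higher and 1 lower. Of all genes tested, 10.8% were called higher and 9.15% lower. The median difference of the 8 genes was 0.10. The called genes, Bnip3, Bnip3l and Bcl2l13, encode receptors of mitophagy, the removal of mitochondria. Bnip3 was at an FPKM of 56.6 and 42.9 in 10p-HFSCs, against 1.86 and 2.43 in 48p-HFSCs, and the means were 49.7 ± 9.69 (SD, n = 2) and 2.14 ± 0.40 (SD, n = 2), a ratio of 23.2. The difference was -4.01 (standard error 0.29, limma adjusted p = 0.0011). Its close relative Bnip3l, which encodes NIX, went the other way, from 12.2 and 13.9 in 10p-HFSCs to 42.6 and 62.6 in 48p-HFSCs, a difference of 1.91 (standard error 0.29, limma adjusted p = 0.0089). Within a library, the ratio of Bnip3 to Bnip3l was 4.63 and 3.08 in 10p-HFSCs, compared with 0.0436 and 0.0388 in 48p-HFSCs.
Bcl2l13 rose from 7.73 and 6.71 to 20.4 and 21.7, a difference of 1.43 (standard error 0.26, limma adjusted p = 0.015). After rescaling to TPM, the calls of Bnip3l (1.36, limma adjusted p = 0.088) and Bcl2l13 (0.90, limma adjusted p = 0.39) were lost, although relative to the median of all genes their differences were 1.91 and 1.46 there. Without either 10p-HFSC library none of the 3 was called, with limma adjusted p-values from 0.054 (Bnip3) to 0.25 (Bcl2l13).
The other 5 tested genes were Bcl2l2, Bok, Bad, Bmf and Bcl2l12. Bcl2l2, which encodes the pro-survival BCL-W, was at 13.0 and 13.3 in 10p-HFSCs, against 13.2 and 15.5 in 48p-HFSCs, and its difference of 0.11 had an interval from -0.52 to 0.74. Bad, a BH3-only gene, was at 100.1 and 41.9 in 48p-HFSCs, on either side of the 60.4 and 61.6 of 10p-HFSCs (limma adjusted p = 0.90). Bok, another effector gene, had a mean of 16.5 ± 6.35 (SD, n = 2) in 10p-HFSCs and of 24.9 ± 1.47 (SD, n = 2) in 48p-HFSCs (limma adjusted p = 0.22). Bmf and Bcl2l12 had limma adjusted p-values of 0.26 and 0.88. Of the 8 genes under the filter, the near-identical copies Bcl2a1a, Bcl2a1b, Bcl2a1c and Bcl2a1d were listed at 0 in all libraries, and Bcl2l10, Bik, Hrk and Bcl2l14 were at 0.322 or less.

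Downstream of the family, 12 of the 13 genes of the mitochondrial pathway reported here were tested by limma, and none was called, against 19.9% of all genes tested. An unadjusted limma p under 0.05 was found for 2 (Vdac2 and Vdac3) and for 37.4% of all genes tested. Apaf1 and Casp9, which form the apoptosome with cytochrome c, had differences of 0.18 and 0.081 and were not called (limma adjusted p = 0.69 and 0.86). Among the channels of the outer membrane, Vdac2, whose product holds BAK1 at the mitochondrion, was at 86.1 and 81.1 in 10p-HFSCs, against 148 and 179 in 48p-HFSCs (difference 0.96, limma adjusted p = 0.063). Vdac3 was at 129 and 153 in 10p-HFSCs, against 74.4 and 94.8 in 48p-HFSCs (difference -0.73, limma adjusted p = 0.13), and it was called lower after rescaling to TPM (limma adjusted p = 0.024). Vdac2 was called higher without replicate 1 of 48p-HFSCs. Casp6 was at 26.5 and 23.6 in 10p-HFSCs, against 36.7 and 29.9 in 48p-HFSCs (difference 0.39, limma adjusted p = 0.30). The median difference of the 12 genes was 0.077.

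In the death receptor pathway, which reaches the family through Bid, 8 of 13 genes were tested and 1 was called, higher, against 10.8% of all genes tested. An unadjusted limma p under 0.05 was found for 3 of the 8 (Fas, Fadd and Tradd) and for 37.4% of all genes tested. Fas, the receptor of the FAS ligand and a p53 target, rose from 2.67 and 3.14 to 32.4 and 64.8, a difference of 3.59 (standard error 0.38, limma adjusted p = 0.0028). Both 48p-HFSC libraries were at least 10 times as high as either 10p-HFSC library. Its call held after rescaling to TPM (3.14) and without either 48p-HFSC library, and was lost without replicate 1 or 2 of 10p-HFSCs (limma adjusted p = 0.089 and 0.080). Fasl was listed at 0 in all 4 libraries, and Tnf and Tnfsf10 were at 0.221 or less. Casp8, the caspase that cuts BID, was at 15.8 and 15.3 in 10p-HFSCs, against 20.1 and 9.95 in 48p-HFSCs (limma adjusted p = 0.83). The median difference of the 8 genes was -0.13.

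None of the 5 tested inhibitors of apoptosis and of the 13 upstream regulators was called by limma, against 19.9% of all genes tested. An unadjusted limma p under 0.05 was found for 3 (Xiap, Birc6 and Naip2) and 2 (Ddit3 and Trp73) of them and for 37.4% of all genes tested. With the replicate number as a term, 3 and 2 were called, when 28.2% of all genes were called. The median differences of the 2 lists were 0.36 and -0.22. Xiap, which blocks caspases directly, was at 25.6 and 19.6 in 10p-HFSCs, against 12.6 and 6.54 in 48p-HFSCs (difference -1.21, limma adjusted p = 0.067), and was called lower without replicate 1 of 48p-HFSCs (-1.63, limma adjusted p = 0.026). Trp53, which encodes p53, was at 67.1 and 73.7 in 10p-HFSCs, against 53.8 and 48.7 in 48p-HFSCs (limma adjusted p = 0.24). Ddit3, which encodes the stress factor CHOP, was at 18.3 and 35.4 in 10p-HFSCs, against 92.2 and 1043 in 48p-HFSCs (difference 3.56, standard error 1.08, limma adjusted p = 0.069), and was called higher after rescaling to TPM (2.99, limma adjusted p = 0.0032). Mdm2, which encodes the ligase of p53 and is itself a p53 target, was at 55.5 and 56.9 in 10p-HFSCs, against 79.5 and 243 in 48p-HFSCs (limma adjusted p = 0.14). After rescaling to TPM, replicates 1 and 2 of 48p-HFSCs were at 138 and 737 for Ddit3 and at 119 and 172 for Mdm2. Bbc3 was at 10.83 and 27.99 there, and Birc5 at 170 and 264, so only Ddit3 was at least 3 times as high in replicate 2. On FPKM, Ddit3, Mdm2, Bbc3 and Birc5 shared the pattern of a replicate 2 of 48p-HFSCs at least 3 times as high as replicate 1. Without that library their differences were 1.81, 0.49, -0.18 and 0.13, and none was called, whereas without replicate 1 all were called, as were 34.6% of all genes, against 19.9% with all libraries.

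**Figure D5:**
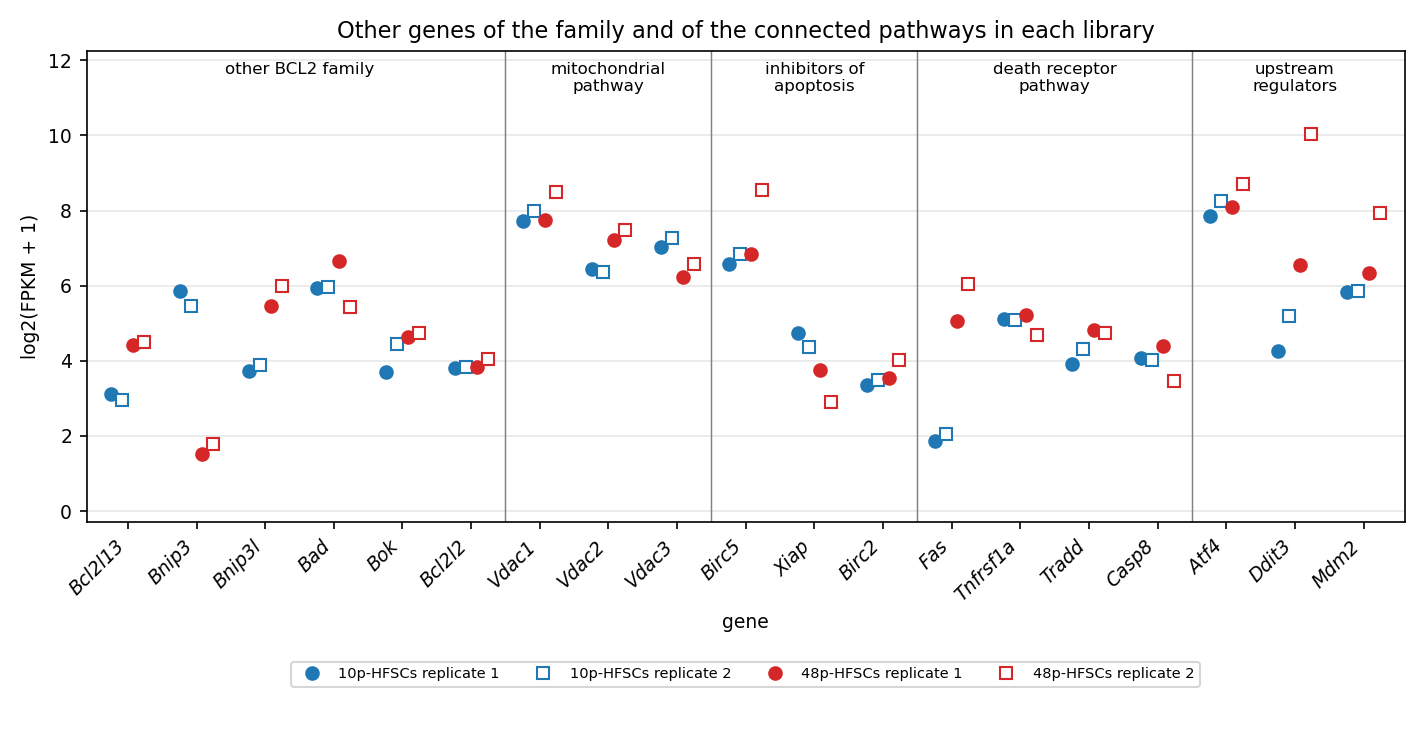
FPKM on the log2(FPKM + 1) scale of named genes of the rest of the family and of 4 connected gene lists, in the 4 libraries (10p-HFSCs in blue, 48p-HFSCs in red, circles for replicate 1 and squares for replicate 2). Bnip3 is low in both 48p-HFSC libraries, Bnip3l, Bcl2l13 and Fas are high in both, and Birc5, Ddit3 and Mdm2 are highest in replicate 2 of 48p-HFSCs.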

How the data were processed

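Polyadenylated RNA of 10p- and 48p-HFSCs was sequenced by the study in single-end mode over 101 bp from a stranded library. The authors mapped reads to mm10 with TopHat 2.1.1, Bowtie2 and SAMtools and deposited 1 FPKM value per gene symbol and library, from Cufflinks 2.2.1 per the methods and Cuffdiff 2.2.1 per the submitters' processing notes, which also name Bowtie2 2.2.8 and SAMtools 0.1.18. The gene annotation is not given in the sources used here. FPKM values are not counts, so no count test was run.

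Here, log2(FPKM + 1) of genes that reached an FPKM of 1 in 2 or more libraries was fitted with limma 3.58.1 in R 4.3.3 (lmFit, eBayes with a variance trend), and the fit was tested on simulated data. Adjustment was by Benjamini-Hochberg over all genes tested. Positions came from GENCODE M21 (95.7% of symbols matched), and sequences from RefSeq (GRCm38.p6). Alternatives were a pseudocount of 0.1, no filter, TPM, median-of-ratios scaling, the replicate number as a block, a constant variance prior, no fold limit, a spline correction of each library for GC content and transcript length, and leaving out each library. Read totals are not part of FPKM, so no counting interval is given.

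The 10 members and the gene lists were chosen with earlier results of these data known. Named were all members, called list genes, up to 3 others a list by mean FPKM, neighbouring genes and the 5 genes nearest to Bcl2l15. Other genes named were chosen after their values were seen. Some genes of the mitochondrial pathway list are not reported here, and its counts leave them out.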

Additional observations from a re-analysis of the deposited data

How the results depend on the processing

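With 2 libraries a group, calls depended most on the 10p-HFSC pair. Over the 4 fits that each left out 1 library, genes called higher ranged from 35 to 1936 and genes called lower from 140 to 1875, called members other than Bcl2l15 from 0 to 4, other BCL2 family genes from 0 to 3, mitochondrial pathway genes from 0 to 1, inhibitors of apoptosis from 0 to 2, death receptor genes from 0 to 2 and upstream regulators from 0 to 3. A lone library was assumed to vary like the other group. Rescaling to TPM gave 623 genes called higher, 1 other BCL2 family gene, 1 mitochondrial pathway gene and 1 upstream regulator. No filter gave 637 genes called lower. The length and GC correction gave 1 inhibitor of apoptosis. With the replicate block, 3 inhibitors of apoptosis, 2 death receptor genes and 2 upstream regulators were called. Among named genes the block added calls for Xiap, Ddit3 and Mdm2 and changed no other call. Deviations of same-numbered libraries correlated at 0.408 across genes, and the 2 pairs share only a number. The cause of these moves was not tested. The called genes among those named numbered 7, with markers of cell types left out. They kept their calls under a pseudocount of 0.1, no filter, median-of-ratios scaling and the block. They also kept them under a constant variance prior, no fold limit and the length and GC correction. Bcl2 and Ptpn22 are among these genes, but they passed the filter through 1 group alone and so had to differ, which leaves their calls without weight.

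Differences that changed sign had no call where the sign changed. After rescaling to TPM they were -0.34 for Bcl2l1, -0.063 for Mcl1, -0.20 for Bak1, -0.027 for Bid, -0.48 for Bad, -0.44 for Bcl2l2, -0.31 for Vdac1, -0.18 for Birc2, -0.24 for Atf4, -0.21 for Ap4b1 and -0.17 for Phtf1os. With the length and GC correction they were -0.33 for Bad and 0.17 for Dclre1b. Without replicate 2 of 10p-HFSCs it was 0.17 for Bax. Over the fits that left out 1 library, differences ranged from -0.21 to 0.70 for Bcl2l1, from -0.59 to 0.32 for Bax, from -0.18 to 2.12 for Bbc3, from -0.53 to 0.71 for Bad, from -0.00070 to 0.22 for Bcl2l2, from -0.11 to 0.65 for Vdac1, from -0.40 to 0.12 for Tnfrsf1a, from -0.60 to 0.35 for Casp8 and from -0.59 to 0.36 for Dclre1b.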
